A study of Homo sapiens with 6 samples.

Results

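Chromatin accessibility of unstressed CCRF-CEM cells was compared with and without SLFN11. The comparison sets the ATAC-seq peak list of SLFN11-knockout cells treated with DMSO against that of parent cells treated with DMSO, which are 2 of the 6 libraries of the series. Condition was taken from the library code that a peak list carries and that also stands in brackets in a sample title. On chromosomes 1 to 22 and X, the knockout list held 19289 merged peaks and the parent list 14205, of 118837 merged peaks summed over the 6 lists.

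CCRF-CEM is an established human leukaemia line of T lymphoblasts. The parent cells are wild-type, and the knockout cells are the same line with the SLFN11 gene knocked out. Both groups compared here received DMSO, the solvent, for a time that the labels do not give. The other 4 libraries, used here only for reference, are parent and knockout cells given 100 nM camptothecin for 2 h or 4 h. Each group has 1 library and the labels name 1 knockout genotype with no second clone, so an effect of the gene and of the clone cannot be told apart. No test between genotypes was possible, and the 95% Wilson intervals given below cover counting error only.

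SLFN11 belongs to the Schlafen family and is a nuclear protein that is recruited to stressed replication forks, where it blocks replication and sensitises cells to DNA-damaging drugs. Cells that lack it survive such drugs better. ATAC-seq reads open chromatin through a transposase that inserts adapters where DNA is not wrapped in nucleosomes, so peaks mark mostly promoters, enhancers and other regulatory DNA. Genes, including SLFN11 itself and the defining markers of T lymphoblasts, were not located, because the peaks are on hg19 and an annotation of that build was not used here. Regions are therefore named by position, and neither the knockout nor the cell type was checked against the data.

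The placement of the lists affects everything that follows. In each genotype, 0 of 3 peak lists sit under the sample whose title carries their code. The list coded as parent DMSO is recorded under the parent 4 h sample, and the list coded as knockout DMSO under the knockout 4 h sample. Placed by record, the DMSO comparison would set other files against each other, and the direction of the main result turns, as given beside it.

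Depth was read from the peaks, since read totals were not used here. A fold enrichment and a p together fix how many fragments pile up at a summit and the local background there, if the caller used a Poisson model. Recovered in this way, the lowest background was 1.27 in the knockout and 1.22 in the parent DMSO list, and 1.26 to 1.37 in the 4 camptothecin lists. A deeper library, or a longer extension of its reads, raises this level. The smallest pileup called was 8 fragments in every list. The median summit pileup per merged peak was 19 in the knockout and 17 in the parent DMSO list, and from 18 to 29 in the others. These medians cover different peaks in each list. Over the regions that both DMSO lists held, the median was 24 in knockout DMSO and 19 in parent DMSO. Where the camptothecin lists called those regions, it was 47 and 57 in the parent 2 h and 4 h lists. In the knockout 2 h and 4 h lists it was 28 and 24.

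More accessible regions were called in unstressed knockout cells than in unstressed parent cells. The log2 ratio of peak numbers, knockout over parent, was 0.44 (interval 0.41 to 0.47). Peaks covered 8.20 Mb in the knockout and 5.69 Mb in the parent list, with median widths of 374 and 353 bp. Broad peaks of at least 1000 bp numbered 484 in the knockout (2.51% of the list) and 252 in the parent (1.77%), and 24.0% and 21.8% of peaks had more than 1 summit. Placed by record, the log2 ratio was -0.18.

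Since nearly as many peaks were matched in each list, the difference in list length appears among the peaks without a counterpart. Of the 19289 knockout peaks, 6794 (35.2%, interval 34.6 to 35.9%) met no parent peak by even 1 bp and are called knockout-only. Of the 14205 parent peaks, 1643 (11.6%, 11.1 to 12.1%) met no knockout peak and are called parent-only. These shares of all peaks are the values against which the subsets below are read. Joined into regions, the lists gave 20857 regions, of which 12420 (59.6%) were open in both. Knockout-only peaks made up 1.79 Mb, or 21.8% of the knockout covered length, and parent-only peaks 0.364 Mb, or 6.39% of the parent covered length. When both lists were shortened to their 14205 most significant peaks, 21.1% of knockout and 20.3% of parent peaks were unmatched, so the asymmetry is not present in lists of equal length, in which near-equal shares follow from the construction.

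**Figure D1:**
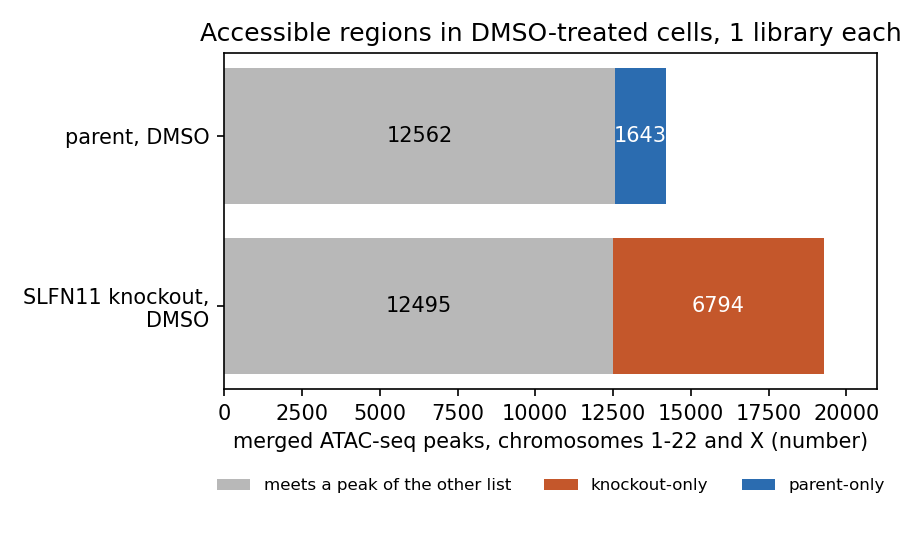
Number of merged peaks (horizontal axis) in the DMSO list of each genotype, split into peaks that meet a peak of the other list (grey) and peaks that do not (coloured). About as many peaks are matched in each list, 12495 and 12562, while 6794 are knockout-only and 1643 parent-only.

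Nearly all of the most significant peaks of either genotype had a counterpart in the other, though often at another rank. All 100 most significant peaks of each list met a peak of the other list, and 94 of the knockout peaks met one of the parent's own 100 most significant. Among the 1000 most significant peaks of each list, 98.2% of knockout and 98.8% of parent peaks were matched in the whole other list, but only 61.5% and 61.2% by a peak among its own 1000 most significant. The 5 most significant peaks of each list lay at the same 5 places, and all were called in all 6 lists. These were chr1:121484077-121485439, chr9:66970981-66971639, chr19:27731833-27733414, chr17:22020539-22020920 and chr13:110076475-110076687, with knockout edges. Their fold enrichments over local background were 20.2, 40.0, 22.5, 54.5 and 42.0 in the knockout list, and 20.2, 40.4, 22.8, 55.2 and 42.5 in the parent list. By general knowledge, those on chromosomes 1 and 19 adjoin centromeres, and peaks in repeats were kept.

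Where both genotypes had 1 peak in a region, which was so for 12212 regions, the peak usually spanned more DNA in the knockout. The knockout peak was the wider in 71.0% and the parent peak in 28.6%. Median widths were 476 and 382 bp, and the median difference, knockout minus parent, was 68.0 bp with quartiles of -12.0 and 176 bp. The highest summits lay a median of 49.0 bp apart, within 50 bp of each other in 51.3% of regions and within 200 bp in 91.9%. In 137 regions 1 knockout peak spanned 2 or more parent peaks, and in 66 regions the reverse held. The median summit pileup over the shared regions, not scaled for depth, was 24 fragments in the knockout and 19 in the parent, and the share of the width difference that goes with pileup was not tested.

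Unmatched peaks in both genotypes were weaker and narrower by the median than matched ones, though not all were. At least 300 bp wide were 28.7% of knockout-only peaks, against 80.2% of matched knockout peaks. For parent-only peaks the share was 14.4%, against 65.2% of matched parent peaks. Knockout-only peaks had a median width of 229 bp against 478 bp for the matched knockout peaks, a median fold enrichment of 4.59 against 6.70 and a median pileup of 13 against 24 fragments. Parent-only peaks had a median width of 192 bp against 382 bp, a fold enrichment of 4.47 against 5.85 and a pileup of 11 against 19. More than 1 summit was listed in 5.65% of knockout-only and 34% of matched knockout peaks, and in 1.10% and 24.5% of the parent sets.

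The unmatched share was lower in each higher class of significance up to a -log10 q of 20. Of knockout peaks with a -log10 q between 2 and 3, 83.9% (82.1 to 85.6%) were knockout-only. The share was 41.5% (40.3 to 42.8%) between 5 and 10, 8.23% (7.51 to 9.0%) between 10 and 20 and 0.840% (0.555 to 1.27%) between 20 and 50. Parent peaks ran lower in the weak classes, with 36.0% (33.5 to 38.6%) unmatched between 2 and 3, 8.37% (7.63 to 9.17%) between 5 and 10 and 0.951% (0.685 to 1.32%) between 10 and 20. At a -log10 q of at least 20 both genotypes stood near the same level, with 27 of 2875 knockout peaks unmatched (0.939%, 0.646 to 1.36%) and 13 of 1325 parent peaks (0.981%, 0.574 to 1.67%). The difference between genotypes in unmatched peaks thus lay among the peaks below that level.

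**Figure D2:**
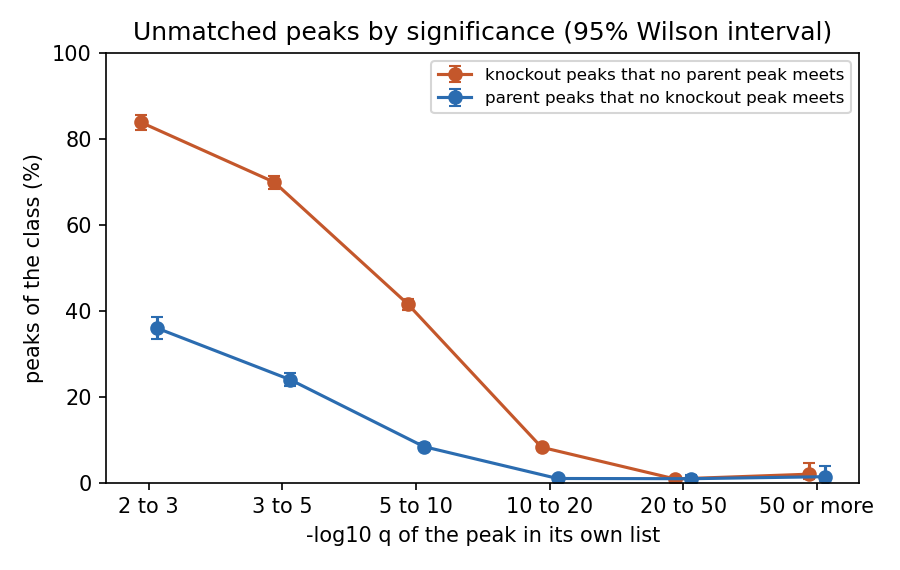
Share of peaks without a counterpart in the other genotype (vertical axis, percent, bars are 95% Wilson intervals) in 6 classes of -log10 q in the list that holds the peak. The knockout series starts at 83.9% and the parent series at 36.0%, and both are below 2% from a -log10 q of 20.

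Width gave the same order. Among peaks narrower than 170 bp, 79.2% of knockout and 36.0% of parent peaks were unmatched, and between 300 and 500 bp the shares were 27.7% and 4.71%. Of the 484 knockout peaks of at least 1000 bp, 7 were unmatched (1.45%, 0.702 to 2.95%). None of the 252 parent peaks of that width was unmatched, a count of 0 that allows a share of up to 1.19% (taken as 3 peaks of 252, not a Wilson limit).

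Those 7 broad knockout-only regions were all called in each of the 4 camptothecin lists, parent lists included. The widest, chr2:87052352-87053629, spanned 1278 bp with 4 summits and was 4.27-fold enriched in knockout DMSO, 5.36 and 5.05-fold in the parent 2 h and 4 h lists and 4.56 and 4.47-fold in the knockout ones. The others were chr11:67055939-67057080, chr11:108368292-108369401, chr1:204463031-204464099, chr1:112281101-112282167, chr11:118800051-118801112 and chr9:86237860-86238875, at 4.03 to 6.04-fold in knockout DMSO. No broad region of this width was therefore open in all knockout lists and closed in all parent lists.

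The 4 camptothecin lists, which the comparison did not use, showed how often an unmatched peak was called again. They are not replicates, since their cells were given drug. Of knockout-only peaks, 59.7% were called in the knockout 2 h list and 49.9% in the knockout 4 h list, but also 65.8% in the parent 2 h list and 57.7% in the parent 4 h list. Parent-only peaks were called in 57.2% and 46.9% of cases in the parent 2 h and 4 h lists and in 46.7% and 38.3% in the knockout 2 h and 4 h lists. Matched peaks were called again in 93.9 to 97.2% of cases. At both times the share of knockout-only peaks called was higher in parent than in knockout cells, and so was the share of parent-only peaks. List length differs, with 23665 and 21617 peaks in the parent and 20894 and 19167 in the knockout camptothecin lists, and its part in these shares was not tested.

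**Figure D3:**
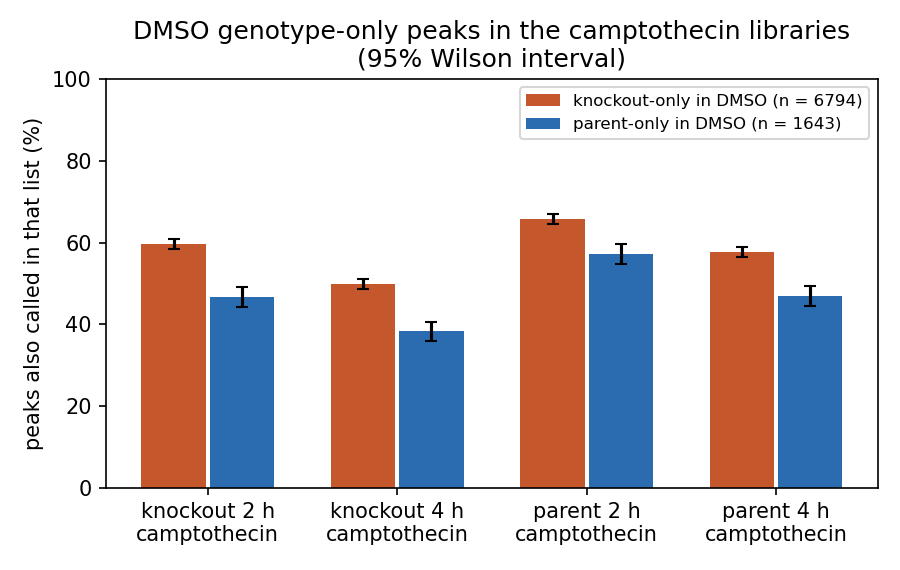
Share of the 6794 knockout-only and 1643 parent-only DMSO peaks (vertical axis, percent, bars are 95% Wilson intervals) that were also called in each camptothecin list. Knockout-only peaks reach 65.8% in the parent 2 h list, above their 59.7% in the knockout 2 h list.

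By the pattern over all lists, 2085 knockout-only peaks (30.7%, 29.6 to 31.8%) were called in all 4 camptothecin lists, so parent DMSO alone lacked them. For parent-only peaks this number was 281 (17.1%, 15.4 to 19%). No other list held 1163 of the knockout-only peaks (17.1%, 16.2 to 18%) and 393 of the parent-only peaks (23.9%, 21.9 to 26.0%). Among peaks with a -log10 q of at least 5, the share in no other list was lower, 10.7% of knockout-only and 19.1% of parent-only peaks, and the share in all 4 was higher, 37.1% and 24.8%. At least 1 camptothecin-treated parent list held 4870 of the knockout-only peaks (71.7%, 70.6 to 72.7%), and at least 1 treated knockout list held 957 of the parent-only peaks (58.2%, 55.9 to 60.6%). Most knockout-only peaks were therefore called in some other parent list. Peaks called in no other list were the weakest, with a median pileup of 10 fragments in both genotypes. Peaks called in all 4 had 16 in the knockout-only and 13 in the parent-only set.

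Peaks that followed the genotype in every library were few. In both treated knockout lists and neither treated parent list, 234 knockout-only peaks were called (3.44% of them, 3.04 to 3.91%, and 1.21% of all knockout DMSO peaks). The opposite pattern, both treated parent lists and neither treated knockout list, held for 430 knockout-only peaks (6.33%, 5.77 to 6.93%). Of the parent-only peaks, 134 were called in both treated parent lists and in no knockout list (8.16%, 6.93 to 9.58%, and 0.943% of all parent DMSO peaks), and 52 showed the opposite pattern (3.17%, 2.42 to 4.13%). Sets of both genotypes thus made up about 1% of their DMSO list.

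Regions open in all knockout and no parent libraries were mostly narrow. Their median width was 236 bp, 59 of 234 were at least 300 bp wide, and in 44 the -log10 q was at least 5 in all 3 libraries. They were scattered over 21 chromosomes, and only 5 lay within 100 kb of the one before. The strongest was chr6:119558556-119558694, with fold enrichments of 23.2, 17.9 and 20.4 and pileups of 79, 61 and 72 fragments in the DMSO, 2 h and 4 h knockout libraries. At 139 bp it was close to the shortest width a peak can have in that list, 135 bp. Its absence from the parent lists is set by how these regions were picked. Ranking them by the lowest fold of the 3 libraries also favours values that lie close together.

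The next was chr7:155142954-155143094, a 141 bp peak at 10.6, 9.62 and 10.2-fold. A 279 bp peak at chr7:13840700-13840978 followed, with 7.83, 7.97 and 9.52-fold and pileups of 20, 21 and 26 fragments. These peaks, with chr2:89867175-89867513 at 3.28, 3.69 and 3.20-fold, were the only 4 whose -log10 q reached 10 in all 3 knockout libraries. The chromosome 2 region lies close to chr2:89868015-89868318 and chr2:89868559-89868834, described below, where the DMSO lists differed in where a peak was drawn. Whether this bears on its pattern was not tested. The other regions of the 10 with the highest lowest fold were chr10:85836428-85836572, chr15:48332514-48332744, chr13:102783639-102783884, chr3:190024470-190024837, chr8:97866299-97866485, chr5:128988465-128988737 and chr7:46055055-46055327. Their lowest fold enrichment ran from 5.91 to 6.74. The chromosome 3 region was the widest of these 10, 368 bp, with 9.15, 10.1 and 6.35-fold and pileups of 23, 27 and 16 fragments.

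Regions open in all parent and no knockout libraries were narrower, as were parent-only peaks as a whole. Their median width was 188 bp, 13 of 134 were at least 300 bp wide, and in 15 the -log10 q reached 5 in all 3 libraries. The strongest was chr14:55804538-55804714, a 177 bp peak at 7.97, 8.54 and 6.80-fold in the DMSO, 2 h and 4 h parent libraries, with pileups of 18, 23 and 19 fragments. It was also the only one at which the -log10 q was at least 10 in every parent library. The second, chr14:44272558-44272889, spanned 332 bp at 7.65, 9.24 and 6.22-fold. At chr7:50535625-50535942, a 318 bp peak stood at 6.11, 7.23 and 6.14-fold. At chr12:133464177-133464413 the fold was 5.98 in DMSO and 7.47 and 9.98 under camptothecin, with pileups of 15, 27 and 37 fragments. In 7 of the 10 strongest parent regions the DMSO fold was the lowest of the 3. Parent DMSO also had the lowest median fold over all peaks, 5.63, against 6.53 and 6.91 in the parent 2 h and 4 h lists.

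The remaining parent regions among the strongest 10 were chr2:207395529-207395740, chr6:70100159-70100295, chrX:147462299-147462470, chrX:155110914-155111057, chr2:143791999-143792170 and chr3:90448205-90448420. Their lowest fold was between 5.14 and 6.16. At the bottom of both sets the evidence is thin, with a median pileup of 12 fragments in the DMSO list of either genotype.

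The chromosomes held these genotype-following regions unevenly. Chromosomes 19 and 22 held 0 of the 234 knockout regions, although 938 and 348 knockout DMSO peaks lie there. Together with chromosome 17, in a group picked after values had been seen, they held 3 knockout regions (1.28%, against 11.2% of all knockout DMSO peaks). The same group held 22 parent regions (16.4%, against 10.7% of parent DMSO peaks). Chromosome 22 alone was not in excess there, with 1.49% of parent regions against 1.62% of parent DMSO peaks. The 3 knockout regions were chr17:14331684-14331833, chr17:63519568-63519719 and chr17:78863819-78863953, none wider than 152 bp. Whether base composition or the longer treated parent lists go with the pattern on chromosomes 17, 19 and 22 was not tested. Other chromosomes departed from their share of the list too. Chromosome 5 held 9.83% of knockout regions against 4.99% of knockout DMSO peaks. Chromosome 2 held 14.2% of parent regions against 8.11% of parent DMSO peaks, and chromosome 12 held 1.49% against 4.89%. These counts are small and carry no interval.

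The most significant unmatched peaks were a different group, and few of them followed the genotype. After chr6:119558556-119558694, already described, the knockout-only list was led by chr4:70296616-70296753 (23.3-fold, 138 bp) and chr6:61913370-61913518 (9.91-fold). Both of these were called in all 4 camptothecin lists. The fourth, chr2:89868559-89868834, had a pileup of 162 fragments at 5.31-fold and was in no other list. The fifth, chr11:48899044-48899261 (15.4-fold), was called in the parent 4 h and knockout 2 h lists. Of these 5, only chr6:119558556-119558694 was called in all 3 knockout lists and no parent list.

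Among wide knockout-only peaks of at least 300 bp, the most significant 5 were all called in all 4 camptothecin lists. They were chr4:49105375-49105704 (3.12-fold), chr20:5695238-5695546 (9.77-fold), chr13:28033715-28034127 (10.7-fold), chr2:70484867-70485512 (9.27-fold) and chr17:57408825-57409190 (9.25-fold). At the chromosome 2 site, 646 bp wide, the fold was 9.34 and 12.6 in the treated parent and 5.32 and 7.94 in the treated knockout lists. Parent DMSO was the 1 list of 6 with no entry at any of them.

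The parent-only list was led by chr7:61080428-61080667 (11-fold, 130 fragments), which all 4 camptothecin lists also held at 10.5 to 11.5-fold. It was followed by chrX:61815091-61815236 (16.0-fold), called in both treated knockout lists and in no treated parent list. Next in order, chr4:163342544-163342700 (18.1-fold) and, in the fifth place, chr9:70000690-70000825 (10.7-fold) were called again only in the parent 2 h list, and the fourth, chr20:29811929-29812134 (11.7-fold), only in the knockout 4 h list. None of these 5 followed the genotype in every library. By general knowledge the chromosome 7 and X sites adjoin centromeres, as does the knockout-only site at chr6:61913370-61913518. The other sites named here and elsewhere were not checked for centromeres or repeats, so some of them may lie there too.

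Wide parent-only peaks were led by chr4:121962940-121963353, a 414 bp peak at 10.9-fold. It was present in both treated knockout lists, at 6.31 and 6.35-fold, and in the parent 2 h list at 5.64-fold. Next were chr6:61901717-61902267 (8.49-fold, called in 3 camptothecin lists), chr2:89868015-89868318 (3.35-fold, in 2), chr12:132634042-132634397 (7.57-fold, in the knockout 4 h list alone) and chr11:48932221-48932569 (8.60-fold, in the parent 4 h list alone). None was a parent region by the pattern over all lists. The chromosome 2 peak lies 240 bp from the knockout-only peak at chr2:89868559-89868834, so at this place the DMSO lists differed in where a peak was drawn. The difference did not follow the genotype. The parent-only peak of this pair was also called in the parent 4 h and knockout 2 h lists, and the knockout-only peak in no other list.

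Such adjoining pairs were a minor part of the whole. Within 1 kb of a parent peak lay 7.15% of knockout-only peaks, and within 1 kb of a knockout peak 17.2% of parent-only peaks. A knockout-only peak lay within 1 kb of 149 parent-only peaks (9.07%). The median distance to the nearest peak of the other genotype was 34.9 kb for knockout-only and 26.7 kb for parent-only peaks.

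Genotype-only peaks were spread over the genome. Chromosome 4 had the lowest knockout-only share, 29.9% (27.2 to 32.9%), and chromosome 18 the highest, 40.4% (35.3 to 45.7%), followed by 40.3% on chromosome 21 and 40.0% on chromosome 15. Parent-only peaks were least frequent on chromosome 22, at 7.39% (4.67 to 11.5%), then on chromosome 19, at 7.60%, and most frequent on chromosome 8, at 15.2% (12.5 to 18.3%). On each of the 23 chromosomes the knockout list held more peaks, by a log2 ratio of 0.29 on chromosome 4 to 0.60 on chromosome 22. In lists of equal length the knockout-only share still was lowest on chromosome 4, at 16.6%, and highest on chromosome 18, at 26.4%. The highest parent-only share also stayed on chromosome 8, at 25.3%, while the lowest moved from chromosome 22 to chromosome 19, at 14.5%.

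**Figure D4:**
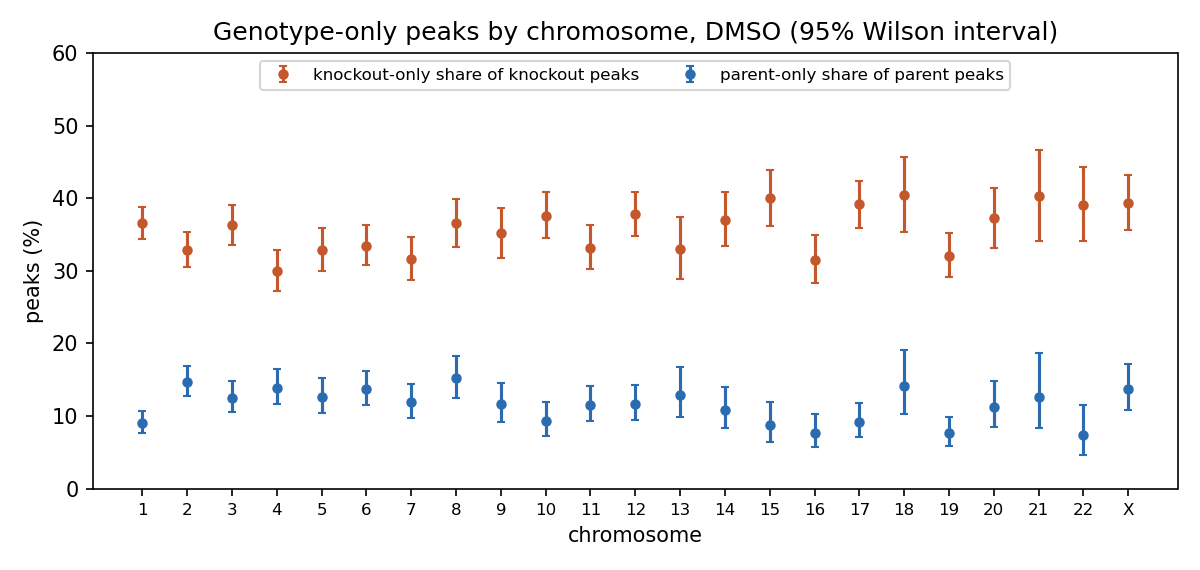
Share of peaks without a counterpart in the other genotype (vertical axis, percent, bars are 95% Wilson intervals) by chromosome. The knockout-only share lies between 29.9% and 40.4% and above the parent-only share, 7.39% to 15.2%, on every chromosome.

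In windows of 1 Mb, 2711 windows held a peak in any list. The knockout DMSO list held more peaks in 1779 and the parent DMSO list in 283. Windows were ranked by their number of genotype-only peaks, not by share. Knockout-only peaks were most numerous between 106 and 107 Mb on chromosome 14, where 19 of 30 knockout peaks were unmatched. By general knowledge this window lies largely within the immunoglobulin heavy chain region. Parent DMSO had 12 peaks in that window, while the parent 2 h and 4 h lists had 28 and 37 and the knockout 2 h and 4 h lists 26 and 23. Between 31 and 32 Mb on chromosome 6, within the major histocompatibility complex by general knowledge, 14 of 29 knockout peaks were unmatched. There parent DMSO had 15 peaks, against 42 and 37 in the treated parent and 35 and 27 in the treated knockout lists. In both windows the parent DMSO list was the lowest of the 6. Picking windows by their number of knockout-only peaks favours this, and that list is also the shortest of the 6 over the genome.

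Windows of next rank were 57 to 58 Mb on chromosome 12, with 14 knockout-only of 26 peaks, and 1 to 2 Mb on chromosome 19, with 14 of 37. The chromosome 19 share is close to the 35.2% of all knockout peaks. Parent-only peaks were most numerous at 61 to 62 Mb on chromosome 7 and at 86 to 87 Mb on chromosome 8. Each window held 7, of 16 and 12 parent peaks. Treated knockout cells had 16 and 15 peaks in the first of these windows and 14 and 16 in the second, so neither window was empty in knockout cells.

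No long stretch was open in 1 genotype alone. Peaks of all 3 knockout and no parent lists occurred in 11 windows, with at most 2 peaks in each list, and peaks of all 3 parent and no knockout lists in 5 windows, with at most 1. In 14 windows the knockout DMSO list had 3 or more peaks and the parent DMSO list none. The fullest, at 33 to 34 Mb on chromosome 15, had 5 in knockout DMSO, and 3 and 2 in the parent 2 h and 4 h lists. The reverse occurred in 1 window, at 154 to 155 Mb on chromosome 2, with 3 parent DMSO peaks and 1 in each camptothecin list.

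The order of regions by enrichment was compared over the 11070 regions that all 6 lists held, which lets ranks have the same length. These correlations are across regions and are descriptions, since regions share library, depth and base composition. Spearman's rho between knockout and parent DMSO was 0.65. Parent DMSO had values of 0.65 and 0.66 with the knockout 2 h and 4 h lists and of 0.54 and 0.49 with the parent 2 h and 4 h lists. Knockout DMSO had values of 0.68 with both treated knockout lists and of 0.60 and 0.57 with the treated parent lists. By this measure the parent DMSO list was closer to every knockout list than to the treated lists of its own genotype.

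**Figure D5:**
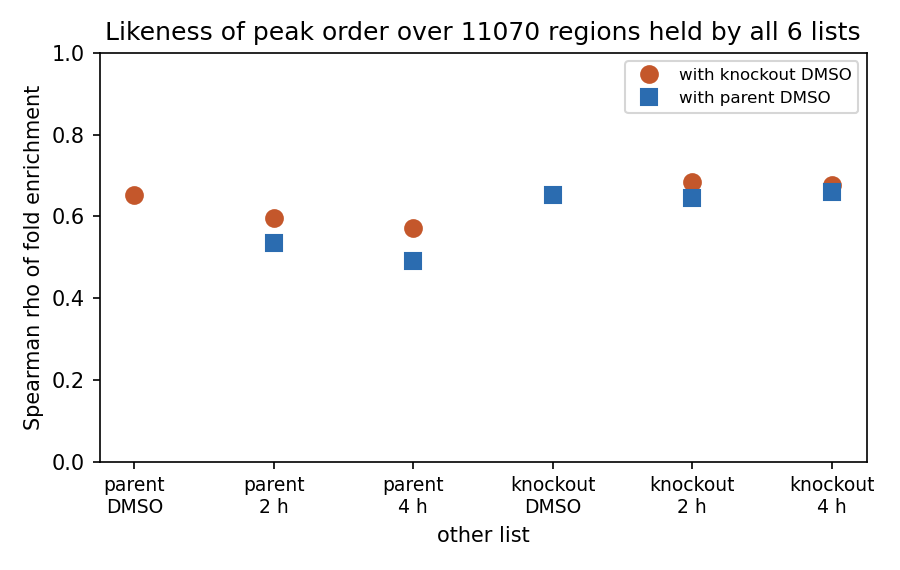
Spearman's rho of fold enrichment (vertical axis) between each DMSO list and every other list, over the 11070 regions held by all 6. Parent DMSO (squares) stands at 0.65 to 0.66 with knockout lists and at 0.54 and 0.49 with treated parent lists.

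Peak sharing in lists of equal length, 14205 peaks each, showed no order by genotype for parent DMSO. Its peaks were matched in 79.7% of cases in knockout DMSO (79.0 to 80.3%), 80.0% in parent 2 h (79.3 to 80.6%), 80.0% in knockout 2 h (79.4 to 80.7%), 78.7% in knockout 4 h (78.1 to 79.4%) and 77.5% in parent 4 h (76.8 to 78.1%). Peaks of knockout DMSO were matched in 82.7% of cases in knockout 2 h (82.1 to 83.3%), 81.5% in parent 2 h (80.8 to 82.1%), 80.5% in knockout 4 h (79.8 to 81.1%), 79.3% in parent 4 h (78.6 to 79.9%) and 78.9% in parent DMSO (78.3 to 79.6%). For parent DMSO, the match with knockout DMSO thus lay between those with the treated lists of its own genotype. For knockout DMSO, the match with parent DMSO was the lowest of the 5 and lay below both lists of its own genotype. Whether genotype adds to it was not tested.

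Shared regions that changed place most between the DMSO lists were also followed into the treated lists. Of 12420 shared regions, the largest gain of place in the knockout was at chr1:21985787-21986096, which stood at place 1280 by fold in the knockout (9.63-fold) and 11957 in the parent (3.63-fold). The next were chr1:15943662-15944169 (place 431 against 11012) and chr7:79846650-79846940 (1440 against 11689), followed by chr1:224370641-224371432 (2049 against 12216) and chr15:72766082-72766707 (1643 against 11720). The first of these stood at 9.15 and 8.23-fold in the treated parent lists and at 8.53 and 4.98-fold in the treated knockout lists. The second stood at 9.16 and 11.7-fold and at 8.80 and 8.05-fold in the same order. At chr7:79846650-79846940 the fold stayed lower in parent cells, at 5.13 in the 2 h list with no peak in the 4 h list, against 6.77 and 7.36 in the treated knockout lists. The remaining regions, chr1:224370641-224371432 and chr15:72766082-72766707, stood higher in treated parent cells (8.43 and 10.4-fold, and 7.32 and 8.84-fold) than in treated knockout cells (6.94 and 6.61-fold, and 6.20 and 5.52-fold). Of these 5 regions, only the chromosome 7 region thus had a lower value, or no peak, in the parent at both camptothecin times. Fold was not scaled between lists. Over all peaks, its median was 6.53 and 6.91 in the parent 2 h and 4 h lists. In the knockout 2 h and 4 h lists it was 5.77 and 5.66, so a higher parent fold is not particular to these regions.

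The largest gain of place in the parent was at chr11:3806537-3806942, at place 533 in the parent (9.89-fold) and 11944 in the knockout (3.82-fold). In the treated lists it stood at 7.28 and 5.29-fold in the parent and 7.25 and 7.09-fold in the knockout. It was followed by chr12:78319370-78319703 (729 against 11778), chr5:104145193-104145729 (1160 against 11778), chr5:51452711-51453164 (620 against 11218) and chr6:139446182-139446520 (1717 against 11991). Both treated parent lists were higher at chr5:104145193-104145729 (8.65 and 6.85-fold, against 5.07 and 4.66-fold in the knockout) and at chr6:139446182-139446520 (9.10 and 8.90-fold, against 6.11 and 5.22-fold). At chr5:51452711-51453164 the treated parent lists were lower (6.11 and 4.70-fold, against 8.10 and 6.53-fold). The chromosome 12 region had no peak in the parent 2 h list and 7.09-fold at 4 h, against 5.91 and 5.39-fold in the knockout. The 5 regions thus went different ways under camptothecin, in fold values that were not scaled between lists. Over the 11070 regions of all lists, the 554 with the largest gain of place in knockout DMSO were higher in the knockout at 2 h in 46.4% of cases and at 4 h in 42.2%, against 51.7% and 50.6% of all regions. The 554 with the largest loss were higher in 49.6% and 52.2%. At both times the share of the gaining regions that were higher in the knockout stood below that of all regions, so the gains in DMSO were not repeated as a set under camptothecin.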

How the data were processed

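ATAC-seq peak lists of 6 libraries were used, 2 of them for the comparison. Tools named in the submitters' processing notes, without role or order, are MACS2 2.1.2, Picard 2.9.2, SAMtools 1.8, BWA 0.7.17, Trimmomatic 0.39 and Trim Galore 0.6.2, and the build is hg19. The transposase offset, read extension, duplicate handling and background model, each of which can move peak edges and numbers, are not stated in these sources. Peak identifiers carry 1 code per list, so the authors called peaks per library.

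Per entry, the deposited files give a score (10 times the -log10 q, truncated), a -log10 p and a -log10 q, a summit offset, and a fold enrichment, the ratio of the summit to the background that the authors' caller set. All lists end at a q of 0.01. Entries on other chromosomes (0.445% to 0.728%) were left out.

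Overlapping entries were merged into 1 peak with its highest values (Python 3.11.15, numpy 2.4.6, pandas 2.3.3, scipy 1.17.1), and an overlap of 1 bp counts as shared. Coordinates count from 1. Pileups were recovered under a Poisson model and came out whole, to a tolerance of 0.02, in 99.951% or more of the entries of every list. PCR fragments are not independent molecules. Functions were tested on simulated data. Named peaks are the 10 of highest lowest fold per genotype-following set, the 5 of highest -log10 q per direction (any width, and at least 300 bp), the 5 largest changes of place and the leading windows. Alternatives were placement by record, a -log10 q of at least 5, equal lists, an overlap of 50% and unmerged entries. Members, rules and lists were chosen with earlier results of these data known. Sequences, and gene lists meant for an hg19 annotation, were not used here.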

Additional observations from a re-analysis of the deposited data

Results flagged for a closer look

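The log2 ratio of peak numbers, knockout over parent, was 0.44 in DMSO and of the opposite sign under camptothecin, -0.18 at 2 h and -0.17 at 4 h. With 1 library per group this difference was not tested. The parent DMSO list, with 14205 peaks, is the shortest of the 6, and the other 5 hold 19167 to 23665.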

How the results depend on the processing

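Each alternative moved the shares beyond their counting interval, and 1 turned the direction. Placed by record, the log2 ratio of peak numbers was -0.18, with 15.4% of knockout peaks (3224) and 26.4% of parent peaks (6249) unmatched. With a -log10 q of at least 5 the values were 0.50, 36.2% (5108) and 9.70% (967), and with lists of equal length 0.00, 21.1% (2993) and 20.3% (2888). An overlap of 50% of the shorter peak gave 36.8% (7092) and 13.7% (1941), and entries as deposited gave 28.3% (7219) and 9.11% (1665). The cause was not tested, except that equal lists fix the ratio at 0.00 by construction. Under the -log10 q of at least 5, covered length was 6.92 and 4.61 Mb in knockout and parent and median width 453 and 426 bp. With every list cut at that level, 128 knockout-only peaks (2.51% of them) and 80 parent-only peaks (8.27%) followed the genotype. Weaker entries of the other genotype are dropped by this cut. Against the full lists of the other genotype, 44 knockout and 15 parent regions reached that level in all 3 libraries of their own. Peaks near the threshold rest on as few as 8 fragments, so depth limits whether such a peak is called. No paired analysis was possible because each DMSO group has 1 library and the labels give no replicate numbers, and the alternative on peaks at transcription starts was not run, since no hg19 annotation was used. No library could be left out of the comparison.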
